A study of Rattus norvegicus with 4 samples.

Results

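The miR-34 family was represented on the array by 5 members, rno-miR-34a-5p, rno-miR-34b-5p, rno-miR-34b-3p, rno-miR-34c-5p and rno-miR-34c-3p (the prefix, for rat, is left out from here on), among 727 rat miRNA probes in all. They were taken by their miRNA name, with no use of their measured values. The arrays profiled the fracture callus, the repair tissue around a broken bone, of 12-week-old male Sprague–Dawley rats whose right femur had been fractured under a drop weight after a wire was placed in its canal. The diabetic group had received streptozotocin, which kills pancreatic beta cells, as 1 intravenous dose of 40 mg/kg and had a blood glucose over 300 mg/dl, and the control group had received sodium chloride. Callus was collected 5 or 11 days after the fracture, and the tissue of 5 rats was pooled for each group and day. Each of the 4 pools, diabetic day 5, control day 5, diabetic day 11 and control day 11, was read on 1 array, so no value has a replicate, no test between groups was possible and no p-value is given. The pools hold whole callus, in which fewer cells of a type and less RNA per cell cannot be told apart.

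MicroRNAs are short RNAs that lower the output of messenger RNAs whose untranslated regions pair with the miRNA's seed, its bases 2 to 8. The miR-34 genes are known as direct transcriptional targets of p53, the transcription factor that answers DNA damage and other stress, and their products restrain cell cycle genes, Bcl2 and the deacetylase Sirt1. In mice, miR-34c acts in osteoblasts on Notch signalling, and miR-34a restrains the formation of osteoclasts. Mir34a is expressed in many tissues, whereas Mir34b and Mir34c are made from 1 shared transcript that is known to be abundant in testis and in ciliated epithelium.

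The sequences are shown because the seed divides the family, and because near-identical members may share signal on a hybridisation array. All 5 members matched an entry of the RefSeq miRNA table (build GRCr8). In the lines that follow, the seed stands in capitals. The 3 5p arms share their seed with miR-449a-5p and miR-449c-5p, and no other of the 693 mature rat miRNAs in the table carries it.
miR-34a-5p: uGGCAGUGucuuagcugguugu
miR-34b-5p: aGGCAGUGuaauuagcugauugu
miR-34c-5p: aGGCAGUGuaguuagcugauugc
miR-449a-5p: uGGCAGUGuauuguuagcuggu
miR-449c-5p: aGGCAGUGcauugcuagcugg
miR-34b-3p: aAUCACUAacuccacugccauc
miR-34c-3p: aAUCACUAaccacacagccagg
miR-34a-3p: aAUCAGCAaguauacugcccua
The 3p arms of miR-34b and miR-34c share another seed, and miR-34a-3p, which had a probe but is not among the 5 members, has a seed of its own. Counted from the 5′ end, miR-34b-5p and miR-34c-5p differ at 2 of 23 bases (A11G and U23C, miR-34b-5p first), and miR-34b-3p and miR-34c-3p differ at 5 of 22. The arrays cannot show how far the paired probes read each other's target.

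Mir34a lies on the plus strand of chromosome 5 (GRCr8), with the mature 5p arm at chr5:165815971-165815992, inside the annotated long non-coding RNA gene LOC103692514. Mir34b and Mir34c lie on the minus strand of chromosome 8, with 441 bases between their hairpins. Their 5p arms are at chr8:60306657-60306679 and chr8:60306133-60306155, and their 3p arms at chr8:60306621-60306642 and chr8:60306101-60306122. The Mir34c hairpin lies within the annotated span of the protein-coding gene Hoatz, and the Mir34b hairpin extends past the end of that span by 5 bases. Both hairpins are given because both arms of each were measured, with the arms in capitals, 5p first.
Mir34b: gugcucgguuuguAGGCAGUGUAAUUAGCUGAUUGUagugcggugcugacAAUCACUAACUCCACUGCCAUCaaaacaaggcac
Mir34c: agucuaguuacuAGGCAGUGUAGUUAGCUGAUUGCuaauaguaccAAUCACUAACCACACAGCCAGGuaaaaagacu

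A level here is the intensity of a miRNA's spot after subtraction of the blank mean, scaled by 1 factor per array so that the 400 miRNAs detected on all 4 arrays have a median of 100. A spot was counted as detected above the blank mean plus 2 blank SD, and between 482 and 560 miRNAs were detected on an array. That limit is lenient, since of the 24 negative control spots of each array 15 exceeded it on the diabetic day 5 array, 8 on the control day 5 array, 13 on the diabetic day 11 array and 10 on the control day 11 array. The mean level of the negative control spots in the same order was 15.3, 7.03, 15.4 and 11.5. Of the marker miRNAs of the tissue, all 4 of cartilage and all 4 of skeletal muscle were above every negative control spot on every array, while 1 of 6 epithelial miRNAs was.

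Only miR-34a-5p was measured well above background on all 4 arrays. Its spot stood 84.4, 80.4, 88.3 and 67.9 blank SDs above the blank mean on the diabetic day 5, control day 5, diabetic day 11 and control day 11 arrays. The remaining 4 members gave 16 spots, of which 14 were detected and 5 were brighter than every negative control spot of their array. These 5 were miR-34c-5p on both day 5 arrays, miR-34b-5p on the control day 5 array, and miR-34c-3p on both control arrays. Of all 727 miRNAs, 320, 374, 283 and 330 were that bright on the 4 arrays in the order above. The brightest negative control spots were at levels of 39.2, 25.2, 51.3 and 34.3. miR-34b-5p thus missed that limit in the diabetic day 5 pool at 32.9 and passed it in the control day 5 pool at 25.7. miR-34b-3p was on no array brighter than all negative control spots. The dim members are therefore described by their values, and a ratio between their levels is a ratio of signals near background.

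**Figure D1:**
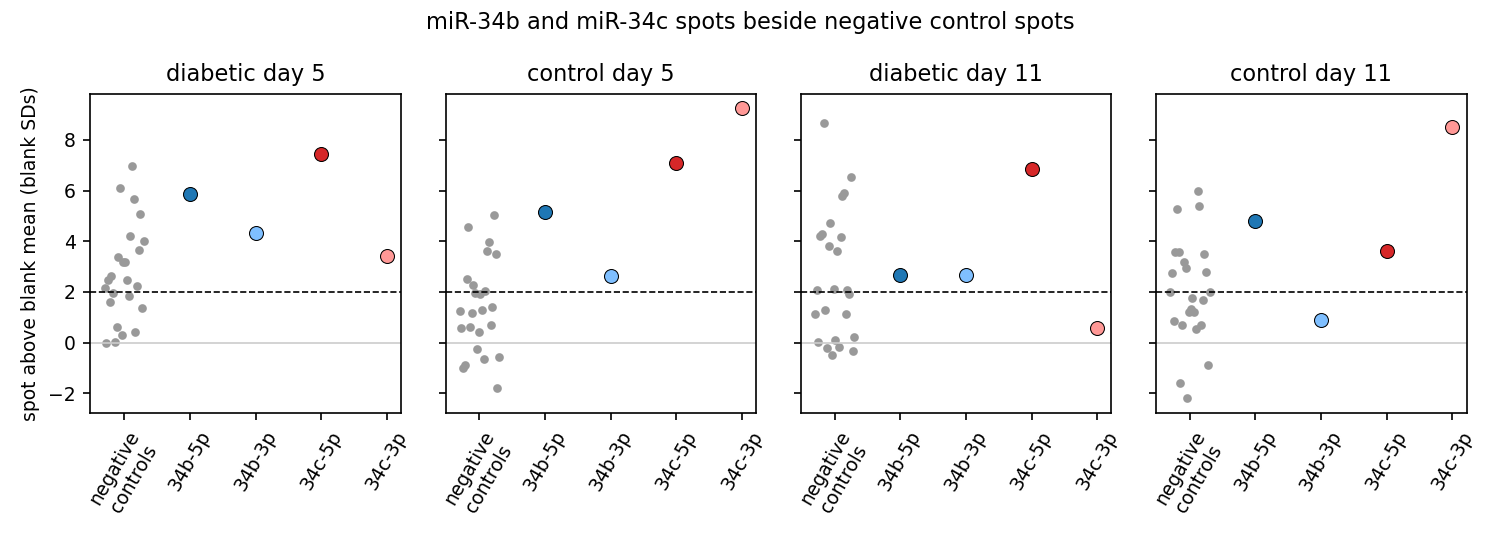
Spots of the 4 miR-34b and miR-34c arms (coloured points) and the 24 negative control spots (grey points) of each array, in blank SDs above the array's blank mean (vertical axis), with the limit of detection at 2 (dashed line). On both control arrays miR-34c-3p lies above every negative control spot, at 9.26 blank SDs on day 5 and 8.50 on day 11, while on the diabetic arrays it lies at 3.43 and 0.59.

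miR-34a-5p, known as the most widely expressed member, was higher in the diabetic callus on both days, by less than 2-fold. Its level was 473 in diabetic callus and 403 in control callus on day 5. On day 11 the levels were 523 in diabetic callus and 389 in control callus. The diabetic level exceeded the control level 1.17-fold on day 5 and 1.35-fold on day 11, with log2 differences of 0.23 ± 0.11 and 0.43 ± 0.11. These errors, like all that follow a log2 difference here, are technical errors from the spike control and blank spots. They leave out the spread between animals and between hybridisations, and the wider spread of the negative control spots. Among all miRNAs detected on both arrays, 42.1% of 468 had a smaller absolute difference on day 5 and 63.3% of 433 on day 11, so the size of neither difference stood apart from the other miRNAs. The order of the 2 groups was the same under the 10 other processing settings, with differences of 0.093 to 0.53 on day 5 and 0.11 to 0.50 on day 11. Those settings that change only the limit of detection could not alter it for this bright miRNA. The smallest of each came with normexp on the local background, which on day 11 was 33.9% of this spot in the diabetic pool and 44.9% in the control pool.

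Over time miR-34a-5p was nearly level. On day 11 it was at 523 in diabetic callus, against 473 on day 5 (log2 difference 0.14 ± 0.12), and in control callus at 389, against 403 on day 5 (log2 difference -0.052 ± 0.10). The first difference has the opposite sign in the authors' deposited table, at -0.15, where the median over all miRNAs was -0.29. The second lay within its technical error and was 0.13 with normexp on the local background. From high to low the 4 pools were ordered diabetic day 11, diabetic day 5, control day 5 and control day 11, and the 2 control pools differed by less than the technical error. The difference between diabetic and control callus was larger on day 11 than on day 5 by 0.20 on the log2 scale, which was not tested and has the opposite sign, at -0.17, in the authors' deposited table. That table holds the same blank-corrected values with another factor per array.

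**Figure D2:**
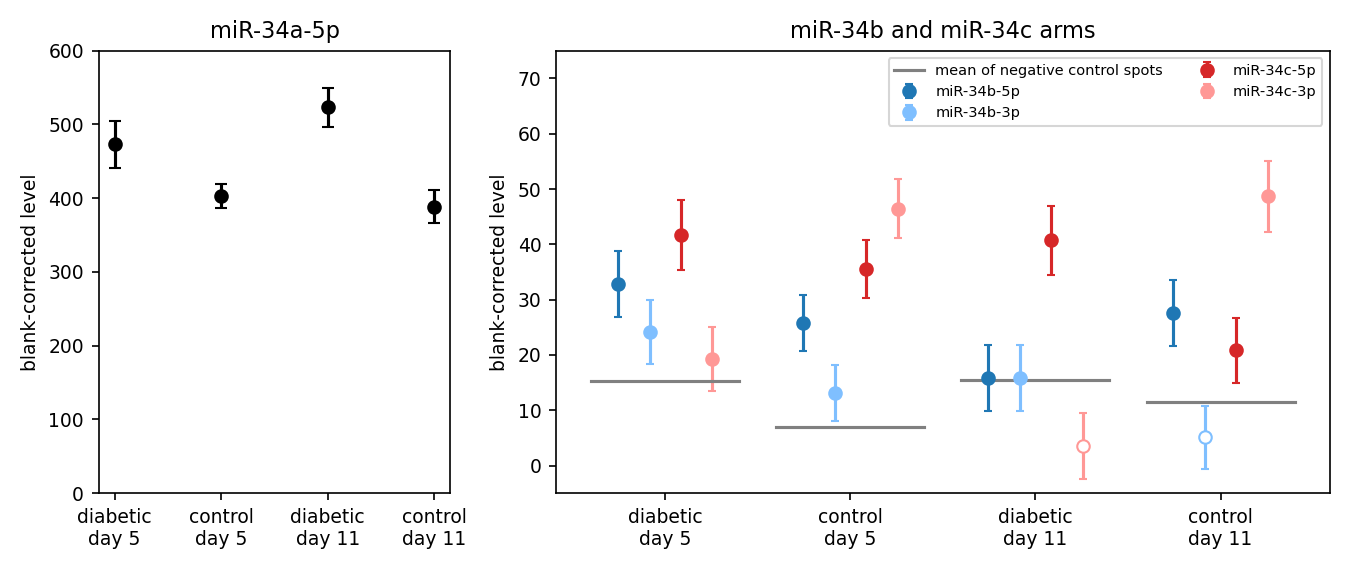
Blank-corrected level (vertical axes, scaled so that miRNAs detected on all 4 arrays have a median of 100) of miR-34a-5p (left) and of the miR-34b and miR-34c arms (right) in each pool, 1 array each, with technical errors as bars, open points where the spot was not detected, and grey lines at the mean of the negative control spots. miR-34a-5p lies between 389 and 523, both diabetic points above both control points, while the 4 other members lie between 3.49 and 48.7.

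The markers of other cell types moved with the groups and days, in part by far more than miR-34a-5p. The summed level of the 4 cartilage miRNAs was 2557 in diabetic callus and 2310 in control callus on day 5, whereas day 11 gave 5642 in diabetic callus against 18169 in control callus. That of 4 leukocyte miRNAs was 5092 in diabetic and 8383 in control callus on day 5, whereas day 11 gave 1479 in diabetic and 1230 in control callus. The 4 skeletal muscle miRNAs summed to 29517 in diabetic and 28103 in control callus on day 5, and to 9933 in diabetic and 9361 in control callus on day 11. The 2 red cell miRNAs summed to 1445 in diabetic and 512 in control callus on day 5, and to 1556 in diabetic and 1591 in control callus on day 11. The 2 endothelial miRNAs summed to 5492 in diabetic and 6973 in control callus on day 5, whereas day 11 gave 4160 in diabetic and 3951 in control callus. The part of cell make-up in the differences of the miR-34 members was not tested.

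The range of miR-34a-5p over the 4 arrays, 0.43 on the log2 scale or 1.35-fold, was among the narrower ones. Of the 400 miRNAs detected on all arrays, 17% had a narrower range, and the median range was 0.78. The same was read over the 269 miRNAs that were brighter than all negative control spots on all arrays, where 20.8% had a narrower range and the median was 0.66. miR-34b-5p and miR-34c-5p ranged over 1.05 and 1.00 on the log2 scale, with 70.5% and 67% of the 400 miRNAs narrower. Neither is among the 269 brighter miRNAs, and both ranges depend on spots near background. In the lowest pool of miR-34b-5p, diabetic day 11, 10 of 24 negative control spots were brighter. In that of miR-34c-5p, control day 11, 3 were brighter.

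**Figure D3:**
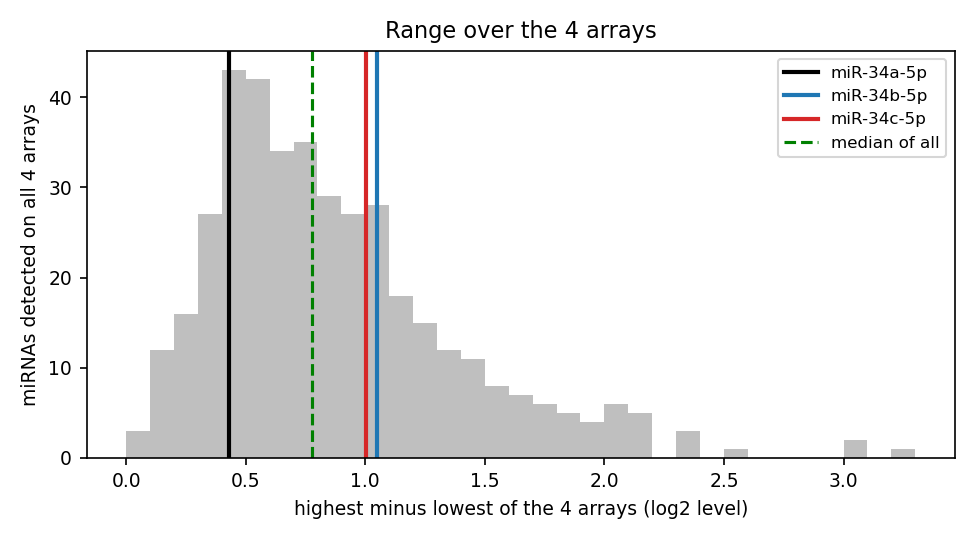
Number of miRNAs (vertical axis) by the difference between the highest and lowest of the 4 arrays in log2 level (horizontal axis) for the 400 miRNAs detected on all arrays, with the 3 miR-34 members among them as solid lines and the median of all as a dashed line. miR-34a-5p, at 0.43, lies below the median of 0.78, and miR-34b-5p and miR-34c-5p, at 1.05 and 1.00, lie above it.

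miR-34b-5p, which shares its seed with miR-34a-5p, was at 32.9 in diabetic callus and 25.7 in control callus on day 5. By day 11 it stood at 15.9 in diabetic callus and 27.6 in control callus. The diabetic day 11 pool was the low one, and there 10 of 24 negative control spots were brighter. The log2 difference between diabetic and control callus was 0.35 ± 0.39 on day 5 and -0.79 ± 0.63 on day 11, so the first lay within its technical error and the second did not. Over the other settings the day 11 difference ran from -0.084, with normexp on the local background, to -5.07, with the mean of the negative control spots subtracted. In diabetic callus the level on day 11 was 2.07-fold lower than on day 5 (log2 difference -1.05 ± 0.60), a call that ended under both normexp corrections, at 0.23 and -0.20, and under quantile normalisation, at -0.85. With the mean of the negative control spots subtracted it was -5.26. The -5.07 and -5.26 rest on almost no signal and give no size for a fall. The diabetic day 11 spot had an intensity of 81.1, and the mean of the negative control spots of that array was 80.9. In control callus the difference between the days was 0.099 ± 0.42.

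miR-34b-3p, the opposite arm of the same hairpin, was at 24.2 in diabetic callus and 13.1 in control callus on day 5. Its day 11 levels were 15.8 in diabetic callus and 5.08 in control callus, where it was not detected. The log2 difference on day 5 was 0.89 ± 0.66, and on day 11 the diabetic level was at least 1.37-fold higher, counted against the lowest detected level of the control array. Against the brightest negative control spot of that array, at 34.3, no fold could be given on day 11, and 10 of 24 negative control spots were brighter than the diabetic spot itself. The mean of the negative control spots also was higher in the diabetic arrays, at 15.3 against 7.03 on day 5 and 15.4 against 11.5 on day 11, and its part in the difference was not tested. The day 5 difference was -0.40 with normexp on the local background and 1.19, past 2-fold, in the authors' deposited table.

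miR-34c-5p was at 41.7 in diabetic callus and 35.5 in control callus on day 5. The day 11 pools gave 40.7 in diabetic callus and 20.8 in control callus. The control day 11 pool was the low one, and the 3 other pools lay within 1.17-fold of each other. The log2 difference between diabetic and control callus was 0.23 ± 0.30 on day 5 and 0.97 ± 0.46 on day 11, the second being 1.96-fold and just short of the 2-fold threshold. It passed that threshold with scaling to the 75th percentile, at 1.00, and with the mean of the negative control spots subtracted, at 1.50, and was 0.28 with normexp on the blank mean. In control callus the level was 1.71-fold lower on day 11 than on day 5 (log2 difference -0.77 ± 0.46), and in diabetic callus the difference was -0.034 ± 0.31. The difference in control callus was -0.19 with normexp on the blank mean and -1.54 with the mean of the negative control spots subtracted. The comparison on day 11 and the one within control callus both rest on the control day 11 array, on which 3 of 24 negative control spots were brighter than this spot.

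miR-34c-3p showed the lowest diabetic levels relative to control of the 5 members on both days. It was at 19.2 in diabetic callus and 46.4 in control callus on day 5. On day 11 the levels were 3.49, not detected, in diabetic callus and 48.7 in control callus. Both control pools were above every negative control spot, and 7 and 17 of 24 negative control spots were brighter than the spot in the diabetic pools of days 5 and 11. The diabetic level was 2.42-fold lower on day 5 (log2 difference -1.27 ± 0.46), and at least 4.08-fold lower on day 11 against the lowest detected level. Counted against the brightest negative control spot of the diabetic array instead, a limit chosen after the values were seen, the diabetic level was at least 1.18-fold lower on day 5, and on day 11 no fold could be given. The day 5 difference fell short of 2-fold with normexp on the local background (-0.59), with normexp on the blank mean (-0.44) and in the authors' deposited table (-0.97), and was -1.57 with quantile normalisation and -3.20 with the mean of the negative control spots subtracted. The local background around this spot reached 93.6% of the spot's intensity in the control day 11 pool. The difference between day 11 and day 5 was 0.068 ± 0.25 in control callus, or -0.90 with normexp on the local background, and in diabetic callus the level on day 11 was at least 1.61-fold lower than on day 5 against the lowest detected level. Against the brightest negative control spot of the diabetic day 11 array, at 51.3, that comparison gave no fold.

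The 2 arms of a hairpin thus did not differ between the groups in the same direction in every case. On day 11 miR-34c-5p was higher in diabetic callus and miR-34c-3p lower. There miR-34b-5p was lower and miR-34b-3p higher, with the bounds and errors given above. For the 3p arms these hold against the blank limit and not against the brightest negative control spot. Neither 5p arm was brighter than every negative control spot on either day 11 array. In the diabetic and control day 11 pools, 10 and 3 of 24 such spots were brighter than miR-34b-5p. For miR-34c-5p 1 and 3 were brighter. No test of these differences between arms was possible with 1 array per pool.

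Counted over the family, 1 of 5 members detected on both arrays of day 5, miR-34c-3p, was at least 2-fold different between diabetic and control callus, and it was lower. Among all 468 miRNAs so detected, 32 were (6.84%), 20 higher (4.27%) and 12 lower (2.56%). The median log2 difference of the 5 members was 0.23, beside 0.038 over all miRNAs. That median is the value of miR-34a-5p, and the members spanned -1.27 to 0.89. On day 11, 0 of 3 members detected on both arrays was 2-fold different, beside 38 of 433 miRNAs (8.78%), of which 17 were higher (3.93%) and 21 lower (4.85%). The median was 0.43 for the 3 members, again the value of miR-34a-5p in a span from -0.79 to 0.97, and 0.034 for all. Both miR-34b-3p and miR-34c-3p, each missed on 1 of the day 11 arrays, stand outside that median.

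Between days 5 and 11, 1 of 4 members detected on both arrays, miR-34b-5p, was at least 2-fold lower on day 11 in diabetic callus, beside 53 of 444 miRNAs that were 2-fold different (11.9%), 17 higher (3.83%) and 36 lower (8.11%). In control callus 0 of 4 members was, beside 62 of 446 miRNAs (13.9%), 31 higher and 31 lower (6.95% each). The members' median difference was -0.33 in diabetic callus and 0.0083 in control callus, beside 0.0065 and 0.028 over all miRNAs. Counts of 0 or 1 among 3 to 5 members are too small to set apart from these shares. Comparisons that use the same array share its error.

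**Figure D4:**
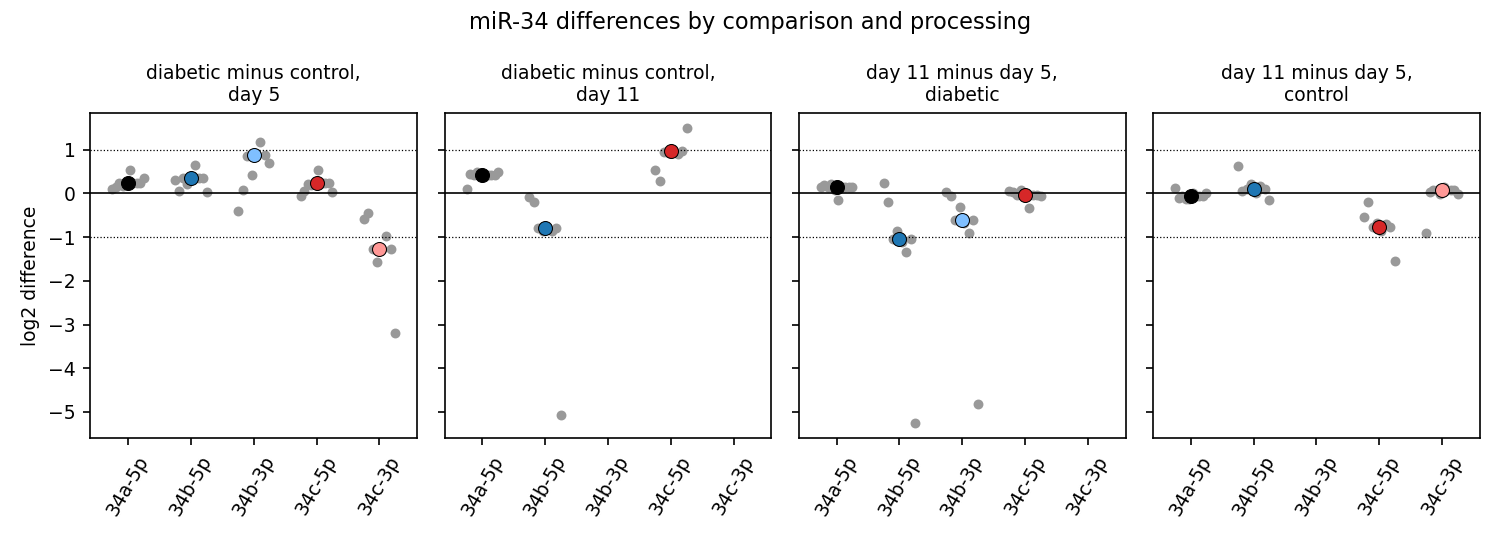
Log2 difference (vertical axis) of each miR-34 member detected on both arrays, by comparison (panels), with the value of the blank-corrected levels as a coloured point, the other processing settings as grey points and dotted lines at 2-fold. The grey points of miR-34a-5p stay within 0.53 of 0, whereas those of miR-34b-5p reach -5.26 when the mean of the negative control spots is subtracted. The diabetic day 11 spot of miR-34b-5p nearly equalled that mean, so this value gives no size for a difference.

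The miRNAs whose pattern over the 4 pools was nearest to that of miR-34a-5p were miR-652-3p, miR-874-3p and miR-1188-3p, with root mean square distances of 0.044, 0.053 and 0.072 between log2 levels centred on their own mean. miR-652-3p, for example, was at 116 in diabetic callus and 106 in control callus on day 5. By day 11 it stood at 137 in diabetic callus and 101 in control callus. With only 4 arrays to compare, 10 of 399 candidates lay within 0.1 of miR-34a-5p. For miR-34c-5p the nearest were miR-127-3p (0.050), miR-136-5p (0.069) and miR-145-3p (0.073), all with their lowest level in the control day 11 pool. For miR-34b-5p they were miR-3562 (0.055), miR-1188-5p (0.062) and miR-29a-5p (0.11), all lowest in the diabetic day 11 pool. The neighbours were picked by their distance, so a shared lowest pool follows from the choice and is no result. The distances are below the technical errors of the log2 differences, at least 0.30 for miR-34c-5p and 0.39 for miR-34b-5p. Which miRNAs ranked nearest to these dim members is therefore open.

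The seed relatives miR-449a-5p and miR-449c-5p, which are known from ciliated epithelium like miR-34b and miR-34c, were also dim. miR-449a-5p was at 24.2 in diabetic callus and 23.9 in control callus on day 5. Its day 11 levels were 13.3 in diabetic callus and 21.9 in control callus, and it was on no array brighter than all negative control spots. miR-449c-5p was at 28.7 in diabetic callus and 47.0 in control callus on day 5. The day 11 pools gave 28.1 in diabetic callus and 50.8 in control callus. Like miR-34c-3p, it was brighter than all negative control spots in both control pools and in neither diabetic pool. The brightest such spot was higher on the diabetic arrays, at 39.2 and 51.3 on days 5 and 11, against 25.2 and 34.3 on the control arrays. Its log2 difference between diabetic and control callus was -0.71 ± 0.34 on day 5 and -0.85 ± 0.36 on day 11, short of 2-fold.

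Other miRNAs linked to p53 were compared as 2 lists. Of 11 miRNAs known to be raised by p53 in human or mouse cells, through transcription or processing, 10 had a probe under the listed name. On day 5 the 7 of them detected on both arrays had a median log2 difference between diabetic and control callus of -0.042, with 1 at least 2-fold higher, beside 4.27% of all miRNAs, and 0 lower, beside 2.56%. The 1 was miR-192-5p, a miRNA of kidney and gut epithelium, at 32.8 in diabetic and 15.7 in control callus (log2 difference 1.06 ± 0.53), with 2 and 5 of 24 negative control spots brighter in these pools. Its day 11 levels were 23.1 in diabetic and 23.1 in control callus (log2 difference -0.0013 ± 0.53). On day 11 the median of the 7 compared was 0.017 with 0 of them 2-fold different, beside 8.78% of all miRNAs. Over time it was 0.034 for 8 in diabetic and -0.14 for 7 in control callus, again with 0 of them 2-fold different, beside 11.9% and 13.9% of all miRNAs. miR-194-5p, expressed from a cluster with miR-192, was at 36.2 in diabetic and 35.2 in control callus on day 5 and at 20.7 in diabetic and 27.1 in control callus on day 11. Its largest difference was that between day 11 and day 5 in diabetic callus, at -0.81 ± 0.48, and 10 of 24 negative control spots were brighter in the diabetic day 11 pool.

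Of the bright members of that list, miR-143-3p, miR-145-5p and miR-107-3p differed by less than 0.1 on the log2 scale between the groups on both days. miR-143-3p, a miRNA of smooth muscle and fibroblasts, was at 2521 in diabetic callus and 2595 in control callus on day 5. On day 11 the levels were 2712 in diabetic callus and 2539 in control callus. Its cluster partner miR-145-5p differed by 0.076 ± 0.11 and 0.018 ± 0.11 between the groups on days 5 and 11, and miR-107-3p by -0.082 ± 0.11 and 0.017 ± 0.11. miR-22-3p was lower in diabetic callus on day 5 by more than its technical error, at 2825 in diabetic callus and 3534 in control callus (log2 difference -0.32 ± 0.11). On day 11 its difference lay within that error, at 3009 in diabetic callus and 3217 in control callus (log2 difference -0.097 ± 0.11). miR-16-5p, which acts on cell cycle genes, was at 8484 in diabetic and 9592 in control callus on day 5 and at 10065 in diabetic and 8525 in control callus on day 11. The dim ones included miR-215, at 22.7, and miR-200c-3p, at 19.4, each detected in the diabetic day 5 pool alone. miR-141-3p was detected in both diabetic pools, at 21.2 on day 5 and 20.8 on day 11, and in neither control pool. There 6 and 10 of 24 negative control spots were brighter than its diabetic spots of days 5 and 11.

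The second list held 4 miRNAs known to bind the p53 messenger RNA in human cells, and 3 of them were detected on both arrays in each comparison, with 0 at least 2-fold different in any, beside the same shares of all miRNAs. miR-125b-5p was at 5440 in diabetic callus and 5536 in control callus on day 5. By day 11 it stood at 5984 in diabetic callus and 7557 in control callus (log2 difference -0.34 ± 0.11), where the local background was 56.3% of its spot in the diabetic pool and 100.3% in the control pool. miR-25-3p and miR-30d-5p were lower on day 11 than on day 5 in both groups, by log2 differences of -0.29 and -0.35 in diabetic callus and -0.46 and -0.62 in control callus. miR-504 was detected on the diabetic day 11 array alone, at 12.0.

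**Figure D5:**
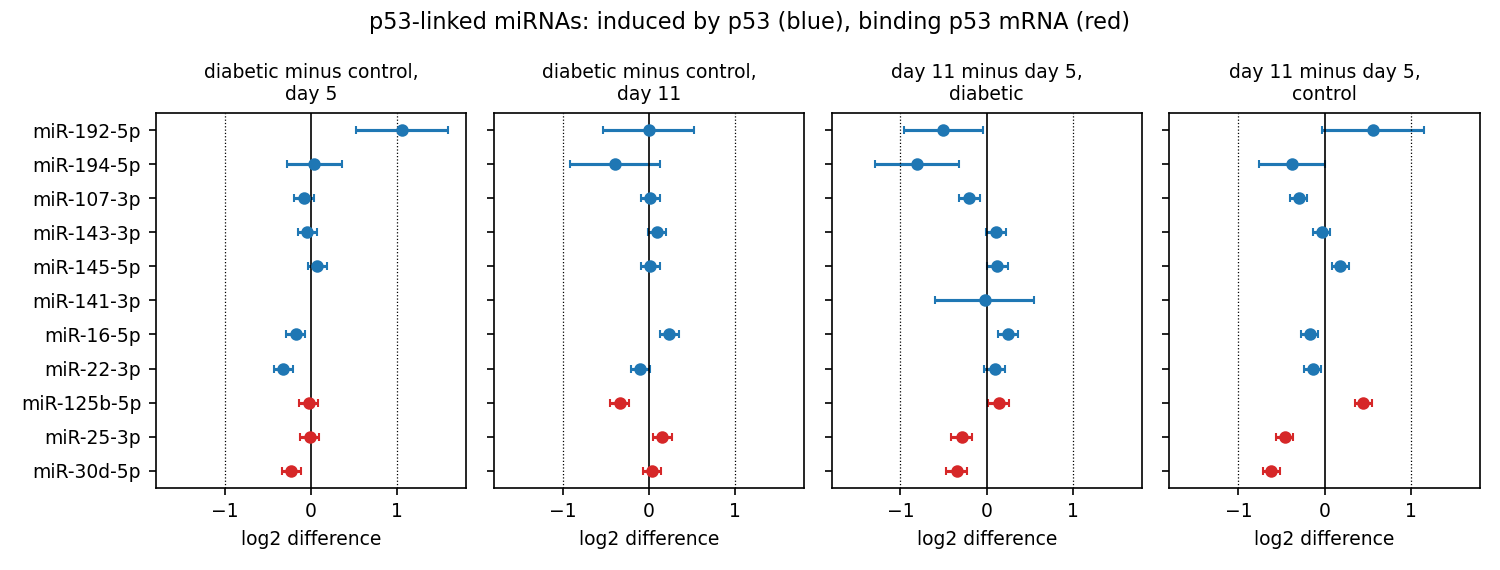
Log2 difference (horizontal axis) of the miRNAs known to be raised by p53 (blue) or to bind the p53 messenger RNA (red) that were detected on both arrays, by comparison (panels), with technical errors as bars and dotted lines at 2-fold. In the 4 panels only miR-192-5p on day 5, at 1.06, passes 2-fold.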

How the data were processed

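Per the labels' protocols, each RNA came from a pool of 5 animals, and total RNA was labelled with Cy5 and hybridised to a 1-colour miRNA array by the array's maker. Per the file headers, the deposited scanner files give each spot's intensity and that of its local background, with nothing subtracted. The authors' deposited table holds 1 processed intensity per miRNA. Set against the scanner files, it equals the spot minus the blank mean, scaled to a median of 25 per array, within 0.114%. In the authors' deposited table the median log2 difference over miRNAs was 0.34 (diabetic minus control, day 5), -0.026 (the same, day 11), -0.29 (day 11 minus day 5, diabetic) and 0.099 (the same, control), a shift from the medians used here of 0.30, -0.060, -0.29 and 0.071, so the table served as an alternative.

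The mean of the 1504 blank spots, without the highest and lowest 5%, was subtracted from each spot and 1 factor per array brought the 400 miRNAs seen on every array to a median of 100. Local background was not used for the main levels because it followed the spot (correlation of log2 values across spots 0.758 to 0.953). The technical error, given as 1 SD, combines the spike control SD (0.056 to 0.095 on the log2 scale) and the blank SD. A miRNA detected on 1 of 2 arrays has a bound, against the higher of the lowest detected level and its own level on the other array. A difference of 2-fold was counted, with no test. The number of arrays, 1 per group, limits the precision. The diabetic day 11 array was dimmer, its spike control 1 averaging 14528, against 31916 to 36103 on the others. The members, lists and the rule for nearest patterns (the 3 closest) were chosen with earlier results of these data known. All members are named with their values. The list members detected on all 4 arrays are named too, some of them by part of their differences only. miR-215, miR-200c-3p and miR-504, each detected on 1 array, and miR-141-3p, detected on both diabetic arrays, were named after their values were seen. Alternatives were 8 planned settings and 2 added after the data were seen, both from the negative control spots. Tools were Python 3.11.15, numpy 2.4.6, pandas 2.3.3, matplotlib 3.10.9, R 4.3.3 and limma 3.58.1 (normexp with an offset of 50).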

Additional observations from a re-analysis of the deposited data

Results flagged for a closer look

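The course of miR-34a-5p and the group difference of miR-34b-5p had opposite signs in the groups or days compared, none of which was tested. miR-34a-5p had a log2 difference between day 11 and day 5 of 0.14 ± 0.12 in diabetic callus and -0.052 ± 0.10 in control callus. miR-34b-5p had a log2 difference between diabetic and control callus of 0.35 ± 0.39 on day 5 and -0.79 ± 0.63 on day 11. Its difference between day 11 and day 5 was -1.05 ± 0.60 in diabetic callus and 0.099 ± 0.42 in control callus. In each pair 1 of the values lay within its technical error, so its sign is open. For miR-34b-5p the other value of each pair rests on the diabetic day 11 spot, where 10 of 24 negative control spots were brighter. Each value rests on 1 array per pool.

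Signal was also present in spots outside the comparisons. Of 24 negative control spots, 15 exceeded the limit of detection on the diabetic day 5 array, 8 on the control day 5 array, 13 on the diabetic day 11 array and 10 on the control day 11 array. miR-34a-3p, the opposite arm of miR-34a-5p, was detected on all 4 arrays, at 35.0 in diabetic callus and 19.9 in control callus on day 5 and at 15.8 in diabetic callus and 18.0 in control callus on day 11, and on none was it brighter than all negative control spots.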

How the results depend on the processing

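The counts of 2-fold miRNAs and members, the family medians and the day 11 minus day 5 change in group difference stayed within 1.5 times (counts) or within the technical error (medians and changes) in 101 of 146 results under the 10 alternatives, but that error is wide enough to hold changes of sign. Part of that agreement was fixed in advance, since settings that change only the limit of detection leave a compared member's difference unchanged. Main counts over all miRNAs were 32 and 38 (diabetic minus control, days 5 and 11) and 53 and 62 (day 11 minus day 5, diabetic and control). The counts that moved are given in that order. With normexp on the local background they were 2 and, in the third comparison, 16, and with normexp on the blank mean 1, 8, 15 and 24. At a limit of 5 blank SD the first 3 were 10, 19 and 28, at the brightest negative control spot 9, 13 and 25, with no filter all were 149, 131, 181 and 158, and with the negative control mean subtracted 71, 93, 98 and 112. The authors' deposited table gave 52 in the first. The member count for diabetic minus control on day 5, 1, was 0 under both normexp settings and both stricter limits, as was that of day 11 minus day 5 in diabetic callus, which was also 0 with quantile normalisation. The member count on day 11 was 1 with the 75th percentile, and 2 with no filter or with the negative control mean. The last pair of settings gave 2 in diabetic and 1 in control callus for day 11 minus day 5. The family median for diabetic minus control was 0.23 on day 5, against -0.055 with normexp on the local background, and 0.43 on day 11, from 0.11 to 0.50. Both main medians are the values of miR-34a-5p. The family median for day 11 minus day 5 was 0.0083 in control callus, from -0.20 to 0.081. In diabetic callus it was -0.33, against 0.10 with normexp on the local background, 0.055 at 5 blank SD, 0.14 at the limit of the brightest negative control spot, where 1 member remained, and -2.44 with the negative control mean. In the diabetic day 11 pool the spots of miR-34b-5p and miR-34b-3p nearly equalled that negative control mean. The change in group difference from day 5 to day 11 was 0.20 for miR-34a-5p, against 0.019 with the local background and -0.17 in the authors' deposited table. It was -1.15 for miR-34b-5p, against -0.39 and -0.26 with the 2 normexp settings and -5.11 with the negative control mean. The -5.11 rests on the diabetic day 11 spot, which nearly equalled that mean, and gives no size for a change. For miR-34c-5p the change in group difference was 0.74, against 0.22 with normexp on the blank mean, 0.37 in the authors' deposited table and 1.48 with the negative control mean. The difference of miR-34b-5p between the days in diabetic callus, -1.05, turned to 0.23 with the local background. The cause of these shifts was not tested, except that the stricter limits compare fewer miRNAs. The authors' deposited table holds the same blank-corrected values with another factor per array, so its shifts are those of the scaling. No paired analysis was possible because each group has 1 array. The normexp offset compresses differences of dim spots, and signal over background limits every member except miR-34a-5p.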
